A study of Mus musculus with 16 samples.

Results

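The enzymes described here are the conjugating enzymes of phase II metabolism in mouse kidney. They were taken by name from the count table: glutathione transferases (symbols beginning Gst and a class letter, or Mgst), UDP-glycosyltransferases (Ugt), cytosolic sulfotransferases (Sult) and the mercapturate-forming acetyltransferase Nat8, leaving out symbols marked as pseudogenes. The rule found 71 of 52338 genes, of which 45 had enough counts to be tested. The 16 RNA libraries are of kidneys from C57BL6 mice, all on a high-fat diet and taken on day 15 from treatment. There were 4 libraries in each group: FAN with time-restricted feeding, FAN with ad libitum feeding, vehicle with time-restricted feeding and vehicle with ad libitum feeding. FAN is an abbreviation left unexplained in the labels; the column names carry the word folic. FAN libraries are known by their group and by the number in the column name. Age and sex are not given in the labels used here. FAN was set against vehicle separately for time-restricted and for ad libitum mice, and time restriction against ad libitum feeding separately for FAN and for vehicle mice. A further term, the interaction, is the FAN change under time restriction minus the FAN change ad libitum. Tests were edgeR's quasi-likelihood test with p-values adjusted over all tested genes by Benjamini-Hochberg and called under 0.05, and changes are log2 ratios of the first group over the second, ± SE. Levels are TMM-scaled CPM, the field's depth-scaled count unit, listed in the order of the libraries' numbers.

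Phase II enzymes attach a water-soluble group to drugs, toxins, hormones and lipid products. Glutathione transferases use glutathione, whose conjugates are cut by gamma-glutamyltransferase and dipeptidases and then acetylated by Nat8 to mercapturates that leave in urine. UDP-glycosyltransferases use UDP-sugars, most often UDP-glucuronic acid, and sulfotransferases use the sulfate donor PAPS. In kidney many of these enzymes are made in the proximal tubule, the segment that takes up and secretes organic compounds.

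Total counts ran over 12450812 to 28255417 in FAN time-restricted, 19266923 to 33035197 in FAN ad libitum, 14124323 to 31699747 in vehicle time-restricted and 18788303 to 33976660 in vehicle ad libitum libraries. For a gene with a count of 0 the limit was 3 counts, between 0.0883 and 0.241 CPM by library, for counting error only. Markers of the proximal tubule were present in every library: the 19 markers summed to 14255 to 17068 CPM in FAN time-restricted, 3225 to 7225 in FAN ad libitum, 25184 to 28133 in vehicle time-restricted and 22117 to 27258 in vehicle ad libitum libraries. Of these 19, 17 fell with FAN ad libitum and 14 with FAN under time restriction, with median log2 changes of -2.33 and -0.97, and 17 were higher with time restriction among FAN kidneys. All 8 markers of injured proximal tubule rose with FAN under both regimens, and macrophage markers rose too (6 of 6 ad libitum, 5 of 6 under time restriction). Of fibroblast and pericyte markers 5 of 6 rose under both, and 4 of 4 of T and NK cells. Of podocyte markers 4 of 6 rose ad libitum and 5 of 6 under time restriction. All 5 erythrocyte markers fell under both, as did 4 of 6 intercalated cell markers ad libitum and 2 of 6 under time restriction. Over all genes 32.1% rose and 28.6% fell ad libitum, and 24.5% and 19.0% under time restriction. Among FAN kidneys 6 of 6 macrophage and 5 of 6 fibroblast and pericyte markers were lower with time restriction. Of injured proximal tubule markers only 1 of 8 was lower, and 7 did not pass. Podocyte markers were lower for 1 of 6, T and NK cell markers for 0 of 4, and 1 of 6 intercalated cell markers was higher. Of erythrocyte markers 4 of 5 were higher there. No marker of these sets was called the other way. Over all genes 13.9% were lower and 17.9% higher in that comparison. In whole-kidney RNA, fewer proximal tubule cells and less RNA per cell cannot be told apart. The part of these marker shifts in the changes below was not tested. Mitochondrial transcripts took 21.4 to 26.7% of counts in FAN time-restricted, 6.94 to 14.8% in FAN ad libitum, 18.0 to 20.9% in vehicle time-restricted and 17.2 to 22.8% in vehicle ad libitum libraries. FAN ad libitum libraries 6 and 7 stood apart from 10 and 12 for several of the enzymes. The pairs also carry S numbers that lie far apart in the column names. What S stands for is not given in the labels used here. Values without a pair are given where they alter a result.

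Vehicle kidneys carried high levels of a few conjugating enzymes, and FAN ad libitum kidneys carried the least of the whole set. Summed over the 71 genes, levels were 4799 to 5869.7 CPM in FAN time-restricted, 2006 to 2612 in FAN ad libitum, 6691 to 8186 in vehicle time-restricted and 6696 to 7391 in vehicle ad libitum libraries. Every FAN ad libitum library lay below every other library. Per kilobase of annotated exons, the highest means over all libraries belonged to Ugt2b38, Ugt3a2, Gstm1, Nat8 and Sult1d1, in that order. In FAN ad libitum kidneys the order differed: Ugt2b37 came first at 121 CPM per kilobase, then Gstm1 at 118, Sult1d1 at 98.6 and Ugt2b38 at 90.1, and Nat8 fell back to rank 10 at 52.5. In vehicle ad libitum kidneys Gstm1 led at 598 CPM per kilobase, before Ugt3a2 at 509.6, Ugt2b38 at 484 and Nat8 at 469.

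**Figure D1:**
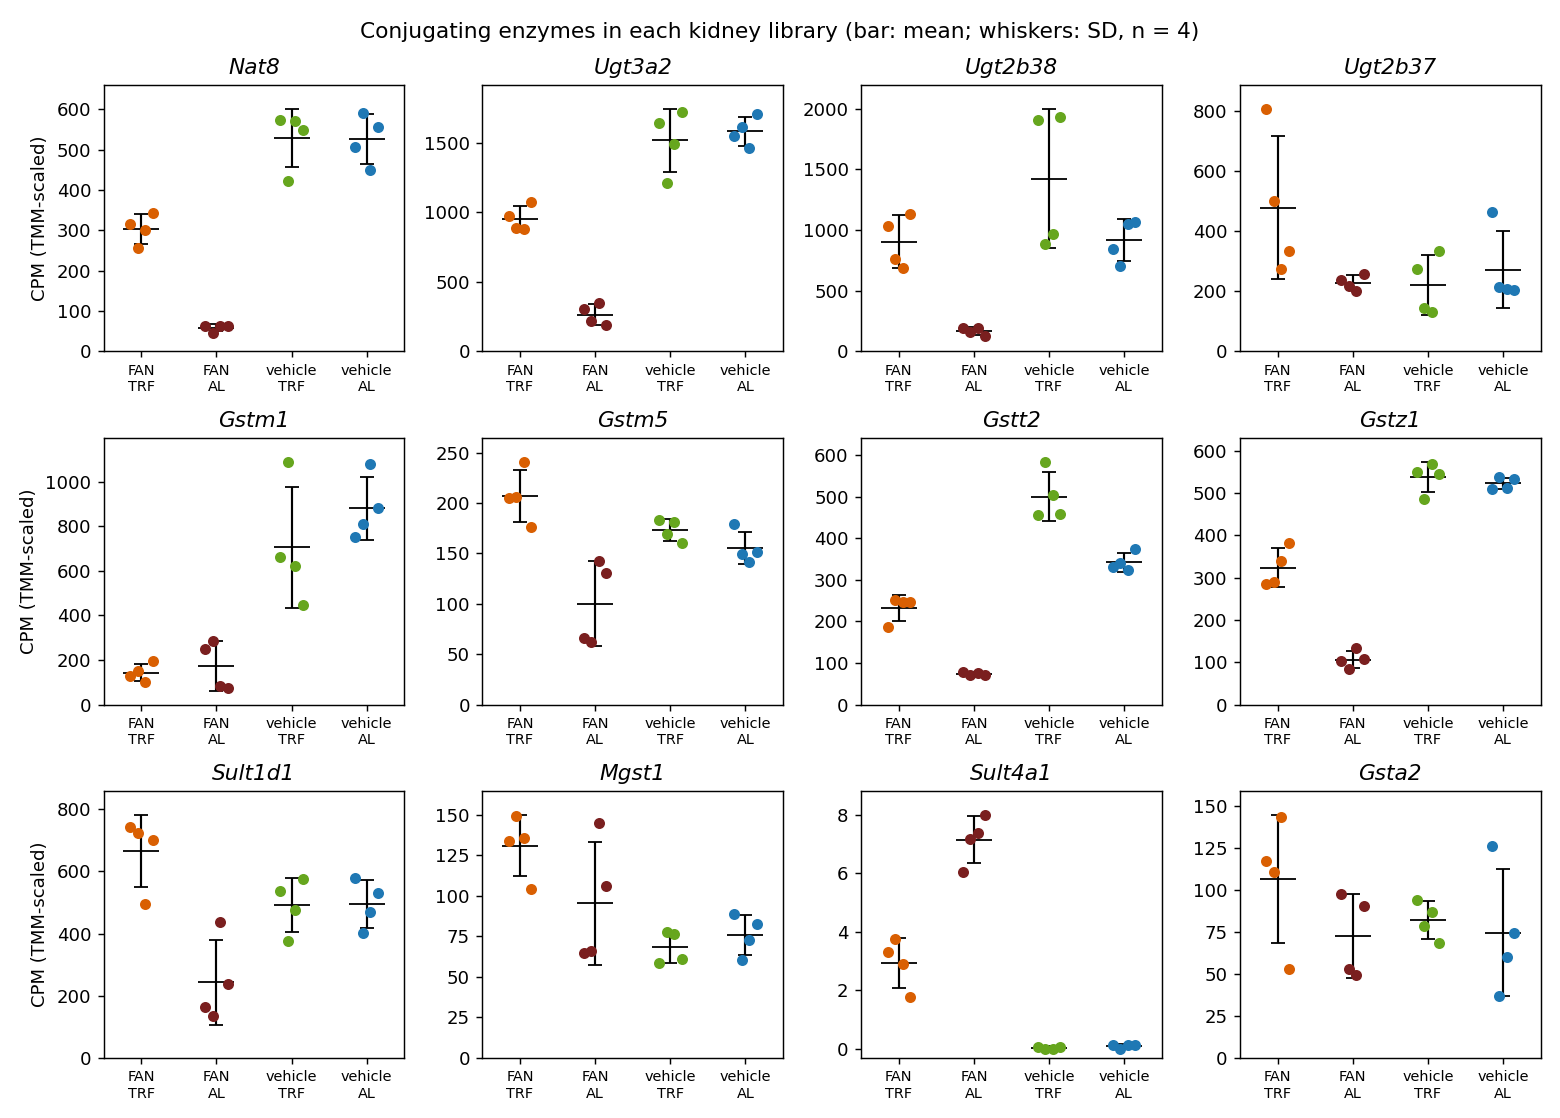
TMM-scaled CPM of 12 conjugating enzymes in each library (points), with the group mean (bar) and SD (whiskers, n = 4), for FAN time-restricted (FAN TRF), FAN ad libitum (FAN AL), vehicle time-restricted and vehicle ad libitum kidneys. Nat8, Ugt3a2, Ugt2b38, Gstt2 and Gstz1 are lowest in FAN AL, Gstm1 is low in both FAN groups, and Sult4a1 is near 0 in both vehicle groups.

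Most tested conjugating enzymes were lower with FAN under ad libitum feeding, and fewer were lower under time restriction. Ad libitum, 25 of 45 fell and 7 rose, against 28.6% of all 17731 tested genes that fell and 32.1% that rose (60.7% changed either way). The share of the enzymes that fell was 55.6%, with a median log2 change of -0.99 over the 45, beside 0.06 over all genes. Under time restriction 14 fell and 7 rose, against 19.0% and 24.5% of all genes (43.5% either way), with a median of -0.17 beside 0.05. All 14 that fell under time restriction were among the 25 that fell ad libitum. The same overlap over all genes is not given here. The 4 FAN libraries lay below the 4 vehicle libraries for 22 enzymes ad libitum and above them for 6, where the shares over all genes were 25.9% and 29.0%. Under time restriction they lay below for 11 and above for 7 (17.9% and 22.4% of all genes). The 2 FAN comparisons use separate libraries. Counts by family below stand beside these shares of all genes that rose or fell. With few genes in each family, nothing is read from them about a family.

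The largest ad libitum falls were those of Nat8, Ugt3a2, Ugt2b38, Gstm1, Gstz1, Gstt2, Gstp2 and Gstk1, with log2 changes from -3.16 to -2.07. Rises were fewer, and of the 7 ad libitum rises only Gsto1 had a mean above 10 CPM over all libraries. These directions are relative to the TMM scaling. Scaled by library totals alone, the median of all genes moved to 0.76 ad libitum, the called genes that rose went to 83.9% of calls, against 52.8% under TMM, and 17 enzymes fell while 13 rose. The enzymes' median then lay 1.04 below that of all genes on the log2 scale, against 1.04 below it under TMM. Scaling shifts all genes of a comparison about equally, so this gap could hardly have changed and is no check on it.

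**Figure D2:**
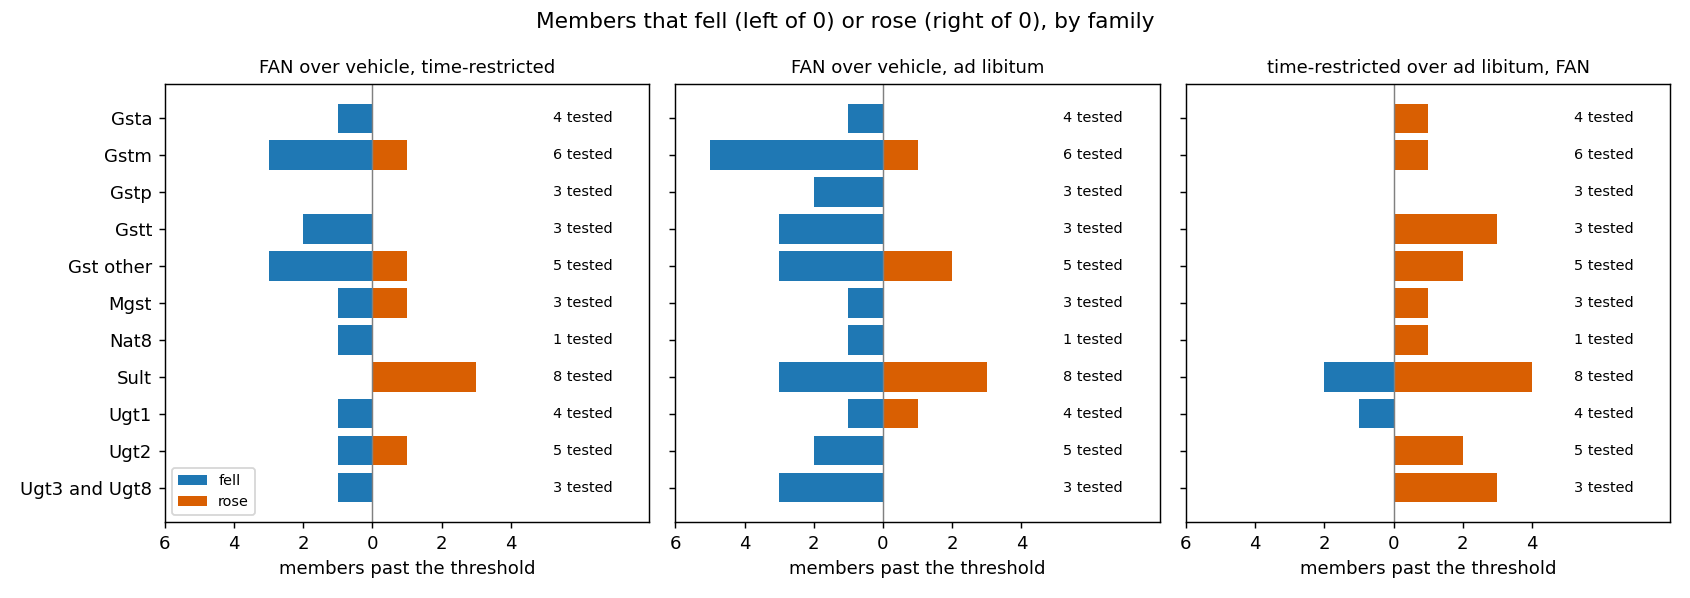
Number of tested members of each family that fell (bars left of 0) or rose (bars right of 0) in 3 comparisons, with the number tested at the right of each row. Falls outnumber rises in most glutathione transferase and UDP-glycosyltransferase classes with FAN, and the right panel shows mostly rises with time restriction among FAN kidneys.

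**Figure D3:**
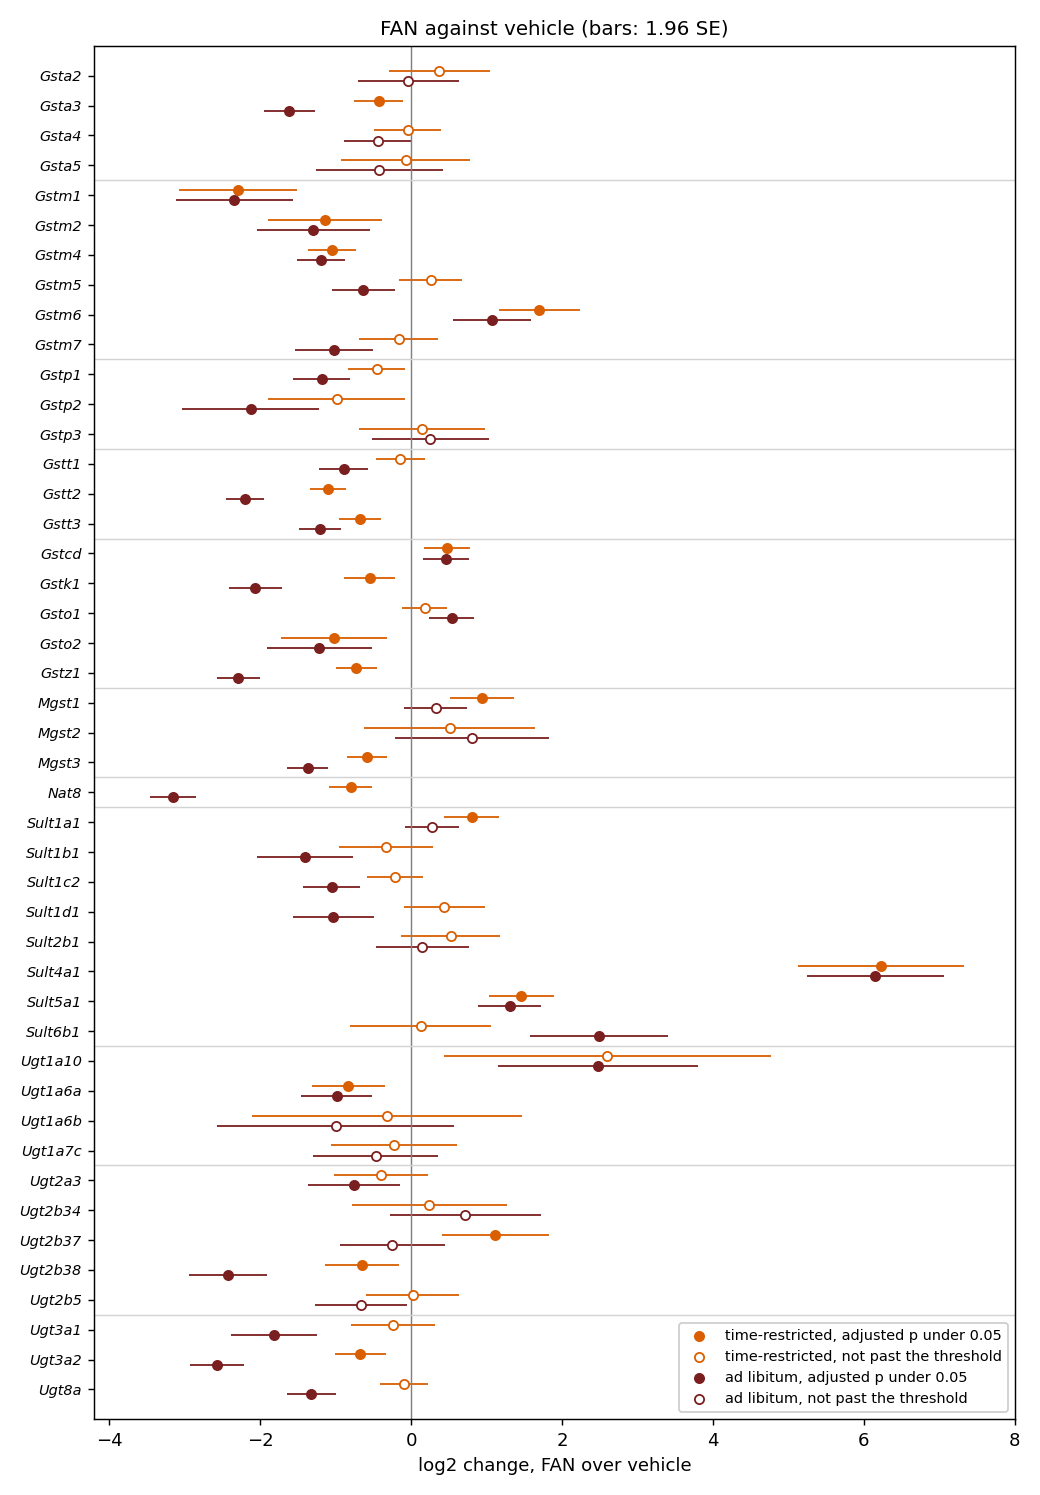
Log2 change of FAN over vehicle for the 45 tested enzymes under time-restricted (orange) and ad libitum feeding (dark red), with bars for the 95% interval; filled points have an adjusted p under 0.05. Nat8, Ugt3a2, Ugt2b38 and Gstz1 lie farther left ad libitum, the values of Gstm1 lie close together with all libraries, and Sult4a1 lies far to the right under both regimens.

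Mu-class glutathione transferases, encoded by a gene cluster on chromosome 3, split by gene. Of 6 tested, 1 rose and 3 fell with FAN under time restriction, and 1 rose and 5 fell ad libitum. Gstm1, the most abundant of them (chr3:108012255-108017973 on GRCm38, minus strand), fell under both regimens. Gstm1 stood at 129.5, 149, 101.6 and 196 CPM in FAN time-restricted and 248, 287, 82.6 and 75.1 CPM in FAN ad libitum kidneys. Vehicle kidneys gave 664, 1087, 623 and 449 CPM under time restriction and 754, 809, 1078 and 882 CPM ad libitum. All 8 FAN libraries lay below all 8 vehicle libraries, and within FAN ad libitum libraries 6 and 7 were above 10 and 12. The log2 change with FAN was -2.29 ± 0.40, adjusted p = 2.16e-04 under time restriction and -2.35 ± 0.40, adjusted p = 7.90e-05 ad libitum, and the interaction was 0.05 ± 0.53, adjusted p = 0.972. Between the feeding regimens of FAN mice Gstm1 did not pass the threshold (-0.27 ± 0.38, adjusted p = 0.622), and the direction depended on which FAN ad libitum libraries were kept: the value was 0.86, adjusted p = 0.0619 without 6 and 7 and -0.89, adjusted p = 0.0245 without 10 and 12. Under library-size scaling it was -0.96, adjusted p = 0.0435. The ad libitum change was -3.53 without 6 and 7 and -1.72 without 10 and 12, and the interaction 1.19 and -0.57, neither of which passed.

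Gstm4 also fell under both regimens, to 9.22, 8.62, 9.23 and 12.1 CPM in FAN time-restricted kidneys against 18.1, 23.5, 19.5 and 19.5 CPM in vehicle ones (-1.05 ± 0.16, adjusted p = 5.65e-05). Ad libitum its FAN values were 8.21, 7.51, 8.04 and 5.78 CPM against 14.3, 17.2, 21.8 and 14.4 CPM (-1.199 ± 0.16, adjusted p = 4.70e-06). No FAN library reached a vehicle library. Gstm2 averaged 45.6 ± 30.5 CPM in FAN time-restricted, 48.8 ± 22.5 in FAN ad libitum, 100.1 ± 26.9 in vehicle time-restricted and 119.9 ± 29.8 in vehicle ad libitum kidneys (SD, n = 4), and fell with FAN by 1.15 ± 0.39 and 1.30 ± 0.38 on the log2 scale under time-restricted and ad libitum feeding. FAN time-restricted library 12, at 91.3 CPM, stood above the other 3 of its group, at 28.6 to 31.4 CPM. The time-restricted call was lost without any 1 of FAN time-restricted libraries 6, 10, 11 and of vehicle time-restricted libraries 2, 3 (log2 change -0.98 to -1.11). The ad libitum call was lost under library-size scaling (-0.58, adjusted p = 0.178), as it was when FAN ad libitum 10 and 12 were left out (-0.89, adjusted p = 0.130).

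Gstm5, at the edge of the cluster, behaved differently from Gstm1. Gstm5 stood at 205, 206, 240.4 and 176 CPM in FAN time-restricted and 65.9, 61.8, 143 and 130.1 CPM in FAN ad libitum kidneys. Vehicle kidneys gave 183, 169, 181 and 160.2 CPM under time restriction and 179, 149, 142 and 152 CPM ad libitum. FAN ad libitum libraries 6 and 7 were lowest of all, while library 10 lay within the vehicle ad libitum range and 12 just under it. With FAN it fell ad libitum (-0.63 ± 0.21, adjusted p = 0.0152), a call lost without any 1 of FAN ad libitum libraries 6, 7 (-0.46 to -0.48) and turned to 0.044 under library-size scaling. Under time restriction it did not pass (0.26 ± 0.21, adjusted p = 0.349), and among FAN kidneys it was higher with time restriction (1.05 ± 0.21, adjusted p = 0.00127). Its interaction of 0.89 ± 0.30 (adjusted p = 0.0719) passed without FAN ad libitum 10 (1.11) or 12 (1.04).

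Gstm6 rose under both regimens from low levels, to 4.36, 6.34, 5.62 and 2.97 CPM against 1.91, 1.45, 1.75 and 0.733 CPM under time restriction (1.70 ± 0.27, adjusted p = 7.80e-05) and to 5.05, 4.47, 4.38 and 4.05 CPM against 2.59, 1.72, 2.49 and 1.70 CPM ad libitum (1.07 ± 0.26, adjusted p = 0.00173). Groups did not overlap in either comparison. The ratio of Gstm1 to Gstm5 CPM within a library, chosen after the values were seen, was 0.423 to 1.11 in FAN time-restricted, 0.577 to 4.65 in FAN ad libitum, 2.80 to 6.42 in vehicle time-restricted and 4.21 to 7.60 in vehicle ad libitum kidneys. In 50-base windows of transcript, Gstm1 shares 18.9% of its sequence with other genes, so some reads may have been split or lost.

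**Figure D4:**
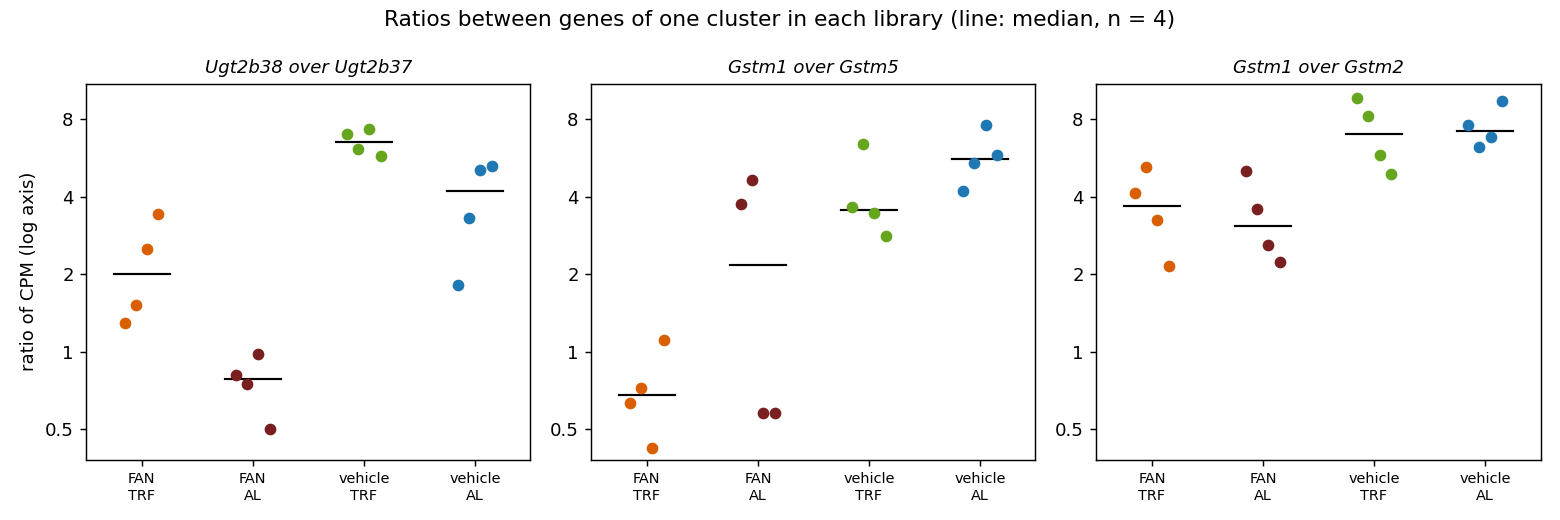
Ratio of CPM between 2 genes of the same cluster in each library (points; line: median, n = 4; log axis) for FAN time-restricted, FAN ad libitum, vehicle time-restricted and vehicle ad libitum kidneys. The ratio of Ugt2b38 to Ugt2b37 is below 1 in every FAN AL library and above 5 in every vehicle TRF library; that of Gstm1 to Gstm5 splits FAN AL into 2 high and 2 low libraries.

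Theta, zeta, kappa and alpha-class enzymes made up another part of the falls, and here the interaction passed for several. Of the theta class, of 3 tested, 0 rose and 2 fell with FAN under time restriction, and 0 rose and 3 fell ad libitum. Gstt2 stood at 187, 251, 246 and 246 CPM in FAN time-restricted and 78.7, 71.1, 76.6 and 70.1 CPM in FAN ad libitum kidneys. Vehicle kidneys gave 456, 583, 505 and 458 CPM under time restriction and 331, 340.1, 323 and 374 CPM ad libitum. Values were lowest in FAN ad libitum kidneys, vehicle time-restricted values highest, and no 2 of the 4 groups overlapped. Gstt2, a theta-class transferase, fell with FAN under time restriction (-1.11 ± 0.12, adjusted p = 1.52e-06) and ad libitum (-2.21 ± 0.13, adjusted p = 2.54e-10), and was higher with time restriction among FAN kidneys (1.65 ± 0.12, adjusted p = 1.13e-07). The interaction was 1.1004 ± 0.17, adjusted p = 5.21e-04. In vehicle kidneys the feeding difference of 0.55 ± 0.12 had an adjusted p of 0.197 by edgeR and 0.00186 by DESeq2, the 1 enzyme DESeq2 called there.

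Gstz1 stood at 285, 289.5, 340.2 and 382 CPM in FAN time-restricted and 102.9, 83.3, 133 and 107 CPM in FAN ad libitum kidneys. Vehicle kidneys gave 549, 486, 568 and 545 CPM under time restriction and 511, 537, 512 and 533 CPM ad libitum. Gstz1, which also acts as maleylacetoacetate isomerase in tyrosine breakdown, lay lowest in FAN ad libitum and next lowest in FAN time-restricted kidneys, and no FAN library reached a vehicle library. Its log2 changes with FAN were -0.73 ± 0.14, adjusted p = 3.89e-04 under time restriction and -2.29 ± 0.15, adjusted p = 6.09e-10 ad libitum, and the interaction was 1.56 ± 0.20, adjusted p = 8.53e-05. Gstk1, the kappa-class enzyme of mitochondria and peroxisomes, averaged 53.3 ± 6.61 CPM in FAN time-restricted, 21.3 ± 7.06 in FAN ad libitum, 78.1 ± 10.5 in vehicle time-restricted and 89.1 ± 8.65 in vehicle ad libitum kidneys (SD, n = 4). It showed the same order, with log2 changes of -0.55 ± 0.17, adjusted p = 0.0161 and -2.07 ± 0.18, adjusted p = 2.37e-08 and an interaction of 1.52 ± 0.25, adjusted p = 6.93e-04. The time-restricted fall of Gstk1 was lost without any 1 of FAN time-restricted library 6 and of vehicle time-restricted library 3 (-0.46 to -0.50).

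Among alpha-class enzymes Gsta3 fell and Gsta2 and Gsta4 did not pass any test. Of 4 tested, 0 rose and 1 fell with FAN under time restriction, and 0 rose and 1 fell ad libitum. Gsta3 stood at 57.4, 65.0, 88.4 and 95.6 CPM in FAN time-restricted and 35.4, 32.2, 43.6 and 30.4 CPM in FAN ad libitum kidneys. Vehicle kidneys gave 109, 91.7, 109 and 104 CPM under time restriction and 127, 90.5, 91.0 and 125 CPM ad libitum. Without overlap the FAN ad libitum libraries were lowest, and FAN time-restricted libraries reached into the vehicle range. The log2 change of Gsta3 with FAN was -1.61 ± 0.17, adjusted p = 2.30e-07 ad libitum, and its interaction was 1.18 ± 0.24, adjusted p = 0.00354. Under time restriction it was -0.43 ± 0.17, adjusted p = 0.0436, a call lost without any 1 of FAN time-restricted libraries 6, 10 and of vehicle time-restricted libraries 1, 3, 4 (-0.32 to -0.43) and under library-size scaling (-0.33, adjusted p = 0.09). Gsta2 varied widely within groups, at 53.2 to 144 CPM in FAN time-restricted, 49.4 to 97.6 in FAN ad libitum, 68.4 to 94.4 in vehicle time-restricted and 37.1 to 127 in vehicle ad libitum kidneys. Its log2 change with FAN of -0.04 ad libitum has a 95% interval from -0.70 to 0.63. It shares 49.8% of its 50-base windows with other genes, so its level is uncertain. Gsta4, which acts on lipid peroxidation products, averaged 32.2, 27.00, 33.2 and 36.7 CPM in FAN time-restricted, FAN ad libitum, vehicle time-restricted and vehicle ad libitum kidneys, and passed for FAN ad libitum without library 10 of that group, or 4 of its vehicle group (-0.57 to -0.67).

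Gstt1 and Gstt3, the other tested theta enzymes, fell with FAN ad libitum (-0.89 ± 0.17, adjusted p = 1.43e-04, and -1.21 ± 0.14, adjusted p = 7.41e-07), and Gstt3 also under time restriction (-0.68 ± 0.14, adjusted p = 8.12e-04). The ad libitum fall of Gstt1 was lost under library-size scaling (-0.21, adjusted p = 0.259). Both were somewhat higher with time restriction among FAN kidneys, Gstt1 by 0.55 ± 0.17 and Gstt3 by 0.42 ± 0.14 (adjusted p = 0.0175 and 0.0279), calls that were each lost without 4 of the 8 FAN libraries, Gstt1 without any 1 of FAN ad libitum libraries 6, 7 and of FAN time-restricted libraries 10, 11 (0.44 to 0.50) and Gstt3 without any 1 of FAN ad libitum libraries 10, 12 and of FAN time-restricted libraries 10, 11 (0.35 to 0.40). Under library-size scaling these 2 values were -0.079 and -0.22. The pi-class enzyme Gstp1 averaged 41.0 ± 5.89 CPM in FAN time-restricted, 31.9 ± 6.36 in FAN ad libitum, 56.1 ± 17.3 in vehicle time-restricted and 72.6 ± 9.26 in vehicle ad libitum kidneys (SD, n = 4), a fall ad libitum (-1.19 ± 0.19, adjusted p = 3.69e-05). Gstp2, with means under 2 CPM, fell ad libitum (-2.13 ± 0.46, adjusted p = 6.22e-04), and Gstp3, also low, passed no test. Gstp1 and Gstp2 share 33.7% and 54.3% of their 50-base windows with other genes, so their separate values are uncertain.

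Gsto1, an omega-class enzyme that reduces dehydroascorbate, was among the few that rose, to 45.2, 50.6, 56.0 and 44.4 CPM in FAN ad libitum kidneys against 34.3, 30.01, 39.0 and 32.1 CPM in vehicle ones (0.53 ± 0.15, adjusted p = 0.00535). The FAN values lay above the vehicle values. Under time restriction its values overlapped (0.18 ± 0.15, adjusted p = 0.368). Its partner Gsto2, near 1 CPM, fell with FAN under time restriction (-1.02 ± 0.36, adjusted p = 0.028) and ad libitum (-1.22 ± 0.35, adjusted p = 0.00623), the time-restricted call being lost without any 1 of FAN time-restricted libraries 11, 12 and of vehicle time-restricted libraries 2, 3 (-0.76 to -1.02). Its ad libitum call was lost under library-size scaling (-0.54, adjusted p = 0.178), and also when FAN ad libitum 6 and 7 were left out (-1.01, adjusted p = 0.067). Gstcd, which carries a glutathione transferase C-terminal domain, rose by 0.47 ± 0.16 and 0.46 ± 0.15 under the 2 regimens. Those calls were lost without any 1 of FAN time-restricted library 6 and of vehicle time-restricted libraries 2, 3 (0.38 to 0.45) under time restriction and without any 1 of FAN ad libitum library 10 and of vehicle ad libitum library 3 (0.35 to 0.38) ad libitum.

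Among the membrane-bound glutathione transferases, Mgst1 rose and Mgst3 fell with FAN under time restriction. Of 3 tested, 1 rose and 1 fell with FAN under time restriction, and 0 rose and 1 fell ad libitum. Mgst1, an enzyme of the endoplasmic reticulum and mitochondrial outer membrane with peroxidase activity, stood at 134, 149, 136 and 104 CPM in FAN time-restricted and 64.7, 66.05, 145 and 106 CPM in FAN ad libitum kidneys. Vehicle kidneys gave 58.4, 77.8, 76.1 and 61.1 CPM under time restriction and 88.4, 60.2, 72.7 and 82.5 CPM ad libitum. All FAN time-restricted libraries were above all vehicle libraries, whereas FAN ad libitum 6 and 7 lay in the vehicle range. The rise was 0.93 ± 0.22, adjusted p = 0.00201 under time restriction, and ad libitum the value was 0.33 ± 0.21, adjusted p = 0.198, or 0.67, adjusted p = 0.00383 without FAN ad libitum 6 and 7, and -0.22, adjusted p = 0.269 without 10 and 12. Without 10 and 12 it was also higher with time restriction among FAN kidneys (1.004, adjusted p = 2.05e-04) and its interaction passed (1.15, adjusted p = 0.00105), where the values with all libraries were 0.46 ± 0.21, adjusted p = 0.112, and 0.61 ± 0.30, adjusted p = 0.231. Mgst3, related to the enzymes of leukotriene synthesis, averaged 114 ± 17.1 CPM in FAN time-restricted, 61.8 ± 11.4 in FAN ad libitum, 172 ± 11.9 in vehicle time-restricted and 159.8 ± 15.5 in vehicle ad libitum kidneys (SD, n = 4). It fell under time restriction (-0.58 ± 0.14, adjusted p = 0.00196) and ad libitum (-1.37 ± 0.14, adjusted p = 1.19e-07), with an interaction of 0.79 ± 0.19, adjusted p = 0.0134, and both FAN groups lay below their vehicle group without overlap. That interaction was 0.64 without FAN ad libitum 6 and 7 (adjusted p = 0.0504), and 0.21 under library-size scaling. Mgst2, with group means under 1 CPM, passed no test with all libraries.

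Near the start sites of the conjugating enzymes, the antioxidant response element core TGACNNNGC, which NRF2 and small MAF proteins bind, was searched on both strands. Windows ran from 250 bases before to 50 after each start (RefSeq, GRCm38.p6). The core was found in 4 of 76 windows of 62 conjugating enzymes, or 5.26%, beside 12.4% of all 32851 windows. The 4 genes were Gsta3, Gstm5, Gstm7 and Mgst1. All 4 are glutathione transferases, while the 76 windows include the other families. The percentage is therefore not that of glutathione transferases, whose own share is not given here. The windows of 3 are shown because these genes moved differently while each holds a match to this core: Gsta3 at chr1:21240335-21240634, plus strand, Gstm5 at chr3:107895604-107895903, plus strand, and Mgst1 at chr6:138140277-138140576, plus strand, with the match in capitals (on the minus strand in Mgst1). A match is a run of letters and not a bound site. The xenobiotic response element core GCGTG was found in 21.1% of the 76 windows, beside 32.4% of all windows, and the HNF4 repeat, AGGTCA 2 times separated by 1 base, with up to 3 mismatches, in 35.5%, beside 24.6%. Both were searched on both strands.
Gsta3: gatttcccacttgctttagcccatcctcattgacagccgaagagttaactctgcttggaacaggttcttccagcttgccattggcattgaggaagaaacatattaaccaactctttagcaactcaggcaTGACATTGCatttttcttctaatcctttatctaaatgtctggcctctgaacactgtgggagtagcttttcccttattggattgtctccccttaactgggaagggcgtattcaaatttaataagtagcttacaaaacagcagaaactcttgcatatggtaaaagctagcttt
Gstm5: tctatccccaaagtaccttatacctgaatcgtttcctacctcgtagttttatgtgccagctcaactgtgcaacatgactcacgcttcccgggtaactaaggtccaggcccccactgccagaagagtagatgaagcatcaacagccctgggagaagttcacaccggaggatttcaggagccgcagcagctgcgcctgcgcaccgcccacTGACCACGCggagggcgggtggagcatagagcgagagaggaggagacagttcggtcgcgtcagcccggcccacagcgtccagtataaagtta
Mgst1: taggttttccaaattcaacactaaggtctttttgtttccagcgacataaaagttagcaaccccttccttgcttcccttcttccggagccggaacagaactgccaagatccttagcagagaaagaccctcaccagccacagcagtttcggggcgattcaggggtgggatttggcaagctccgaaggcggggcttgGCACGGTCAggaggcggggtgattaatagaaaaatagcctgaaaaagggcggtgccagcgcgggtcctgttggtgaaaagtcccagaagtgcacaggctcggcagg

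Nat8, which acetylates cysteine conjugates in the last step of mercapturate formation and lies at chr6:85830388-85832082 on GRCm38, minus strand, had the largest fall of all the enzymes ad libitum. Nat8 stood at 315, 255, 301 and 344 CPM in FAN time-restricted and 63.5, 46.1, 63.5 and 62.9 CPM in FAN ad libitum kidneys. Vehicle kidneys gave 575, 423, 570.3 and 548 CPM under time restriction and 506, 591, 451 and 558 CPM ad libitum. The 4 FAN ad libitum libraries were far below all others, FAN time-restricted libraries lay between, and the vehicle groups overlapped each other. Ad libitum the FAN mean was 8.92-fold lower (-3.16 ± 0.16, adjusted p = 9.04e-11), and under time restriction 1.74-fold lower (-0.80 ± 0.15, adjusted p = 2.57e-04). Among FAN kidneys it was 5.15-fold higher with time restriction (2.36 ± 0.15, adjusted p = 3.04e-08), and the interaction was 2.36 ± 0.21, adjusted p = 6.91e-06. It was called in the same direction under all alternatives run in each of these comparisons. Of 2 RefSeq windows of this gene, the one nearer the gene body is shown, because this enzyme had the largest fall. It lies at chr6:85832230-85832529, minus strand, and does not contain the gene start that GENCODE gives. It does not hold the antioxidant core, and so has no capitals.
Nat8: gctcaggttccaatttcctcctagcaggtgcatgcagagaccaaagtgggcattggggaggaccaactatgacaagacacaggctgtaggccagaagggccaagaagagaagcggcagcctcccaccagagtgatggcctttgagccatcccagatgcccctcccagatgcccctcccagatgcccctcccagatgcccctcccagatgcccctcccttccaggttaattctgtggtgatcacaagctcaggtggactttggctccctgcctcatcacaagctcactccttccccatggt

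UDP-glycosyltransferases differed by gene, with falls of Ugt3a2 and Ugt2b38 and no call for the abundant Ugt1a7c. In the Ugt3 and Ugt8 group, of 3 tested, 0 rose and 1 fell with FAN under time restriction, and 0 rose and 3 fell ad libitum. Ugt3a2 (chr15:9335550-9370955 on GRCm38, plus strand), whose human counterpart uses UDP-glucose rather than UDP-glucuronic acid, was the second most abundant enzyme per kilobase. Ugt3a2 stood at 974, 883, 876 and 1069.6 CPM in FAN time-restricted and 303.5, 221, 346 and 188 CPM in FAN ad libitum kidneys. Vehicle kidneys gave 1638, 1212, 1492 and 1722 CPM under time restriction and 1547, 1609, 1461 and 1706 CPM ad libitum. The FAN ad libitum libraries were lowest and those of FAN time-restricted kidneys second lowest, with no overlap with vehicle libraries. The log2 change with FAN was -0.67 ± 0.17, adjusted p = 0.00459 under time restriction and -2.58 ± 0.18, adjusted p = 2.14e-09 ad libitum, and the interaction was 1.90 ± 0.25, adjusted p = 1.07e-04. Its neighbour Ugt3a1, whose human counterpart uses UDP-N-acetylglucosamine, averaged 81.5 ± 26.1 CPM in FAN time-restricted, 28.1 ± 13.7 in FAN ad libitum, 96.2 ± 15.9 in vehicle time-restricted and 98.9 ± 15.3 in vehicle ad libitum kidneys (SD, n = 4). Ugt3a1 fell ad libitum (-1.82 ± 0.29, adjusted p = 4.00e-05) and not detectably under time restriction (-0.24 ± 0.28, adjusted p = 0.519). The interaction of 1.58 ± 0.40, adjusted p = 0.0194, was 1.49 without FAN ad libitum 7, where it no longer passed.

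Ugt8a, which makes galactosylceramide from UDP-galactose, had 131, 98.7, 77.5 and 119 CPM in FAN time-restricted and 41.5, 39.3, 54.1 and 37.3 CPM in FAN ad libitum kidneys. Vehicle kidneys gave 139, 98.8, 99.5 and 117 CPM under time restriction and 95.1, 118, 113 and 104 CPM ad libitum. Lowest were the FAN ad libitum libraries, and the other 3 groups overlapped. It fell ad libitum (-1.32 ± 0.16, adjusted p = 1.65e-06), and under time restriction its change of -0.09 has a 95% interval from -0.41 to 0.22. The interaction was 1.23 ± 0.23, adjusted p = 0.0021.

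Ugt2b enzymes glucuronidate steroids and fatty acid products, and 2 genes of the cluster on chromosome 5 differed. In the whole Ugt2 group, of 5 tested, 1 rose and 1 fell with FAN under time restriction, and 0 rose and 2 fell ad libitum. Ugt2b38 (chr5:87409942-87424203 on GRCm38, minus strand) was the most abundant enzyme per kilobase. Ugt2b38 stood at 1036, 757, 685 and 1135 CPM in FAN time-restricted and 193, 163, 196 and 129 CPM in FAN ad libitum kidneys. Vehicle kidneys gave 1906, 885, 968 and 1928 CPM under time restriction and 842, 707, 1047 and 1067 CPM ad libitum. Every FAN ad libitum library lay below all others, and 2 vehicle time-restricted libraries stood at 1906 and 1928 CPM. With FAN it fell ad libitum (-2.43 ± 0.26, adjusted p = 3.37e-07). Under time restriction it was -0.65 ± 0.25, adjusted p = 0.0428, a call lost without any 1 of FAN time-restricted libraries 6, 10, 11 and of vehicle time-restricted libraries 1, 4 (-0.48 to -0.73) and under library-size scaling (-0.56, adjusted p = 0.0624). Among FAN kidneys it was 5.30-fold higher with time restriction (2.41 ± 0.26, adjusted p = 2.90e-06), with an interaction of 1.77 ± 0.36, adjusted p = 0.00382.

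Ugt2b37 stood at 805, 501, 273 and 332 CPM in FAN time-restricted and 238, 219, 200.6 and 258 CPM in FAN ad libitum kidneys. Vehicle kidneys gave 272, 145, 132 and 334 CPM under time restriction and 464, 213, 206 and 203 CPM ad libitum. FAN ad libitum values of Ugt2b37 lay inside the vehicle range, and 2 FAN time-restricted libraries, 6 and 10, were above every vehicle library. Its change with FAN was -0.25 ± 0.36, adjusted p = 0.571 ad libitum and 1.12 ± 0.36, adjusted p = 0.02 under time restriction, a rise lost without any 1 of FAN time-restricted library 6 and of vehicle time-restricted libraries 2, 3 (0.74 to 0.96). Among FAN kidneys it was higher with time restriction (1.06 ± 0.36, adjusted p = 0.0336), a call lost without any 1 of FAN ad libitum libraries 6, 7, 10, 12 and of FAN time-restricted libraries 6, 10 (0.69 to 1.13). The ratio of Ugt2b38 to Ugt2b37 CPM within a library, chosen after the values were seen, was 1.29 to 3.41 in FAN time-restricted, 0.502 to 0.977 in FAN ad libitum, 5.78 to 7.33 in vehicle time-restricted and 1.81 to 5.25 in vehicle ad libitum kidneys. Ratios were lowest in FAN ad libitum libraries, and only there did Ugt2b37 exceed Ugt2b38 in CPM in every library.

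The promoter windows of the 2 genes are shown because their levels differed while their sequences were nearly the same: over 286 aligned bases 274 were identical, or 95.8%. Ugt2b38 lies at chr5:87424154-87424453 and Ugt2b37 at chr5:87254739-87255038, both on the minus strand of GRCm38.p6. Neither window holds the antioxidant core. Ugt2b38 and Ugt2b37 share 37.4% and 18.3% of their 50-base transcript windows with other genes, so part of their reads may be assigned to the wrong copy.
Ugt2b38: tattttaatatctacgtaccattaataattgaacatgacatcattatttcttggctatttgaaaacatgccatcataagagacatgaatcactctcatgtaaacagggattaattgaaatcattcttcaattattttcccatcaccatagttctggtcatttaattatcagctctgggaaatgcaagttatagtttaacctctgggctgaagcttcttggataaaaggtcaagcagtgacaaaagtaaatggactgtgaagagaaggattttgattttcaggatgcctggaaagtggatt
Ugt2b37: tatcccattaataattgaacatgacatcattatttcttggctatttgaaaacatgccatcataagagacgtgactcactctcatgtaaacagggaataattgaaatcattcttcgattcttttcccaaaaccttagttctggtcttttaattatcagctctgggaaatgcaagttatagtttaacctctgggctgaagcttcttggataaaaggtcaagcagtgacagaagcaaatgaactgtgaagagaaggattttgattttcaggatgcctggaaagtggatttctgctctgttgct

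Ugt2b5, another Ugt2b enzyme, averaged 12.8, 9.62, 12.9 and 15.2 CPM in FAN time-restricted, FAN ad libitum, vehicle time-restricted and vehicle ad libitum kidneys. It passed no test, though the ad libitum change of -0.67 ± 0.31 passed without FAN ad libitum 12 or FAN time-restricted 12 (-0.67 to -0.82). Ugt2b5 shares 41.7% of its 50-base windows with other genes, among them the more abundant Ugt2b38 and Ugt2b37, so its level is uncertain. Ugt2a3, near 1 CPM, fell ad libitum (-0.76 ± 0.31, adjusted p = 0.0413), a call lost without any 1 of FAN ad libitum libraries 6, 7, 10, 12 and of vehicle ad libitum libraries 1, 3 (-0.56 to -0.80) and under library-size scaling (-0.06, adjusted p = 0.869). The Ugt1a genes of chromosome 1 share their downstream exons, and Ugt1a7c, Ugt1a6a and Ugt1a10 share 53.7%, 52.1% and 63.0% of their 50-base windows with other genes, so their values are uncertain. Ugt1a7c ran from 41.4 to 92.6 CPM in FAN time-restricted, 22.8 to 89.8 in FAN ad libitum, 31.9 to 100.9 in vehicle time-restricted and 55.2 to 109 in vehicle ad libitum kidneys, and passed no test. Ugt1a6a, a phenol-conjugating enzyme near 2 CPM, fell under time restriction (-0.83 ± 0.25, adjusted p = 0.0107) and ad libitum (-0.99 ± 0.24, adjusted p = 0.00169), the ad libitum call being lost under library-size scaling (-0.29, adjusted p = 0.281).

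Ugt1a10 was carried by few reads, with 58, 15, 82 and 25 counts in FAN ad libitum libraries against 12, 1, 5 and 4 in vehicle ad libitum libraries. FAN ad libitum 6 and 10 were highest, and in CPM the groups overlapped. The rise was 2.48 ± 0.68, adjusted p = 0.00399. Among FAN kidneys its fall with time restriction (-2.48 ± 0.69, adjusted p = 0.0106) gave -1.69 without FAN ad libitum 10 and 12, where it did not pass.

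Single sulfotransferases went both ways. Of 8 tested, 3 rose and 0 fell with FAN under time restriction, and 3 rose and 3 fell ad libitum. Over all genes 24.5% rose and 19.0% fell under time restriction, and 32.1% and 28.6% ad libitum, so nothing is read from these counts. Sult1d1 (chr5:87554645-87569027 on GRCm38, minus strand), which sulfates catecholamines in mouse, was the most abundant. Sult1d1 stood at 743, 723, 496 and 701 CPM in FAN time-restricted and 164, 133, 436 and 237 CPM in FAN ad libitum kidneys. Vehicle kidneys gave 537, 377, 476 and 575 CPM under time restriction and 579, 402, 469.8 and 529.8 CPM ad libitum. FAN ad libitum libraries 6, 7 and 12 were below all others, while library 10 lay in the vehicle range. It fell with FAN ad libitum (-1.03 ± 0.28, adjusted p = 0.00358), a call lost under library-size scaling (-0.36, adjusted p = 0.186), and under time restriction its value was 0.44 ± 0.27, adjusted p = 0.208. Among FAN kidneys it was higher with time restriction (1.46 ± 0.28, adjusted p = 7.71e-04), with an interaction of 1.47 ± 0.39, adjusted p = 0.0232, that did not pass without vehicle time-restricted 2 (1.37) or without both FAN ad libitum 6 and 7 (1.001).

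Sult1c2 fell ad libitum to 28.9, 24.2, 53.7 and 27.8 CPM in FAN kidneys, against 72.6, 64.9, 70.5 and 71.3 CPM in vehicle kidneys (-1.06 ± 0.19, adjusted p = 1.12e-04). Under time restriction it had 79.5, 66.1, 56.9 and 72.3 CPM in FAN against 85.3, 66.03, 80.2 and 86.4 CPM in vehicle kidneys (-0.21 ± 0.19, adjusted p = 0.393). The ad libitum groups did not overlap and the time-restricted groups did. Its interaction of 0.85 ± 0.27 (adjusted p = 0.0561) passed without FAN ad libitum 10 (1.16) or FAN time-restricted 11 (0.92). Sult1b1, which sulfates thyroid hormones, averaged 5.79 ± 2.14 CPM in FAN time-restricted, 2.28 ± 1.07 in FAN ad libitum, 7.35 ± 2.33 in vehicle time-restricted and 5.91 ± 1.57 in vehicle ad libitum kidneys (SD, n = 4), a fall ad libitum (-1.41 ± 0.33, adjusted p = 0.00112) and higher values with time restriction among FAN kidneys (1.38 ± 0.33, adjusted p = 0.00392). That feeding difference was 0.92 without both FAN ad libitum 6 and 7, where it did not pass.

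Sult1a1, the main phenol sulfotransferase, stood at 45.1, 58.7, 59.9 and 52.4 CPM in FAN time-restricted and 33.6, 31.4, 53.1 and 34.2 CPM in FAN ad libitum kidneys. Vehicle kidneys gave 25.6, 27.1, 40.5 and 31.0 CPM under time restriction and 35.6, 32.1, 23.6 and 34.1 CPM ad libitum. FAN time-restricted libraries lay above all vehicle libraries, and FAN ad libitum libraries overlapped the vehicle range. It rose under time restriction (0.80 ± 0.18, adjusted p = 0.00182), and ad libitum its value was 0.28 ± 0.18, adjusted p = 0.195. Its feeding difference among FAN kidneys, 0.51 ± 0.18, adjusted p = 0.0397, was lost without any 1 of FAN ad libitum libraries 6, 7, 12 and of FAN time-restricted libraries 10, 11, 12 (0.43 to 0.52) and was -0.12 under library-size scaling.

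Sult4a1, best known from neurons and without a well-established substrate, had the largest rise. It had 85, 86, 74 and 19 counts in FAN time-restricted libraries against 2, 0, 0 and 1 in vehicle time-restricted ones, and 289, 349, 187 and 310 in FAN ad libitum libraries against 4, 0, 3 and 2 in vehicle ad libitum ones. All FAN libraries were above all vehicle libraries, which lay at or near 0. Pooled and scaled, the ratio of FAN to vehicle was 89.6 under time restriction (exact 95% counting interval 30.3 to 437) and 74.6 ad libitum (39.1 to 164), intervals that cover counting error only. In CPM it reached 3.31, 3.76, 2.91 and 1.77 in FAN time-restricted and 6.05, 7.16, 7.37 and 7.99 in FAN ad libitum kidneys, without overlap, and was lower with time restriction (-1.26 ± 0.32, adjusted p = 0.00557). It was the enzyme that kept its fall in that comparison under every alternative run. FAN against vehicle passed under both regimens (adjusted p = 1.46e-07 and 3.87e-09).

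Sult5a1 rose under both regimens to 3.31, 5.16, 6.68 and 4.65 CPM in FAN time-restricted against 1.78, 1.77, 1.84 and 1.79 CPM in vehicle time-restricted kidneys (1.46 ± 0.22, adjusted p = 3.86e-05). Ad libitum it had 4.38, 5.09, 5.99 and 4.74 CPM in FAN against 2.35, 2.28, 1.58 and 1.89 CPM in vehicle kidneys (1.30 ± 0.21, adjusted p = 3.83e-05). Groups did not overlap in either. Sult6b1 lies outside the naming rule because its mean is under 1 CPM, and is named after its values were seen as the 1 enzyme whose interaction passed downward. It averaged 0.451 ± 0.203 CPM in FAN time-restricted, 0.977 ± 0.335 in FAN ad libitum, 0.398 ± 0.160 in vehicle time-restricted and 0.179 ± 0.116 in vehicle ad libitum kidneys (SD, n = 4), with a rise ad libitum (2.49 ± 0.47, adjusted p = 1.67e-04), a value of 0.12 ± 0.47, adjusted p = 0.853 under time restriction and an interaction of -2.36 ± 0.67, adjusted p = 0.0326, and no enzyme passed downward there in 9 of the 16 fits that left out 1 library.

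Time-restricted feeding was accompanied by higher conjugating enzymes among FAN kidneys, and by no call among vehicle kidneys. Among FAN kidneys 18 of 45 were higher and 3 lower with time restriction, against 17.9% and 13.9% of all genes (31.8% either way), with a median log2 change of 0.46 beside -0.02. Time-restricted libraries lay above ad libitum libraries for 17 enzymes and below for 2, where the shares of all genes were 15.7% and 12.3%. Of the 25 enzymes that fell with FAN ad libitum, 16 were higher with time restriction. Both comparisons use the FAN ad libitum libraries, with opposite sign, so this overlap is partly built in. Its share over all genes is not given here. The largest differences were those of Ugt2b38 (2.41 ± 0.26), Nat8 (2.36 ± 0.15), Ugt3a2 (1.84 ± 0.18), Gstt2 (1.65 ± 0.12) and Gstz1 (1.60 ± 0.14). The 3 that were lower were Sult4a1, Ugt1a10 and Sult6b1.

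Scaled by library totals alone, the median of all genes in this comparison moved to -0.67, the share of calls that were higher with time restriction went to 8.61%, against 56.4% under TMM, and 12 enzymes were higher and 9 lower. The 12 higher under every scaling were Gsta3, Gstk1, Gstt2, Gstz1, Nat8, Sult1b1, Sult1c2, Sult1d1, Ugt2b38, Ugt3a1, Ugt3a2 and Ugt8a. The enzymes' median lay 0.484 above that of all genes under that scaling, and 0.482 above it under TMM. Here too the gap could hardly have changed, since scaling shifts all genes about equally.

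The FAN change itself differed between regimens for 12 enzymes: the interaction passed upward for 11, Nat8, Ugt3a2, Ugt2b38, Ugt3a1, Gstz1, Gstk1, Sult1d1, Ugt8a, Gsta3, Gstt2 and Mgst3, and downward for 1, Sult6b1. Over all genes 7.76% passed upward and 1.4% downward (9.16% either way). The values of the upward 11 ran from 0.79 to 2.36, and all 11 had fallen with FAN ad libitum. The interaction and that fall share the FAN and vehicle ad libitum libraries, so this overlap is partly built in. The median over the 45 was 0.61, beside 0.02 over all genes. Under library-size scaling the median of all genes was -0.57, upward calls made up 7.60% of calls against 84.7% under TMM, and 10 enzymes passed upward and 3 downward, 10 of the 11 among them. The upward count was 17 without FAN ad libitum 10, and 17 without both 10 and 12.

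**Figure D5:**
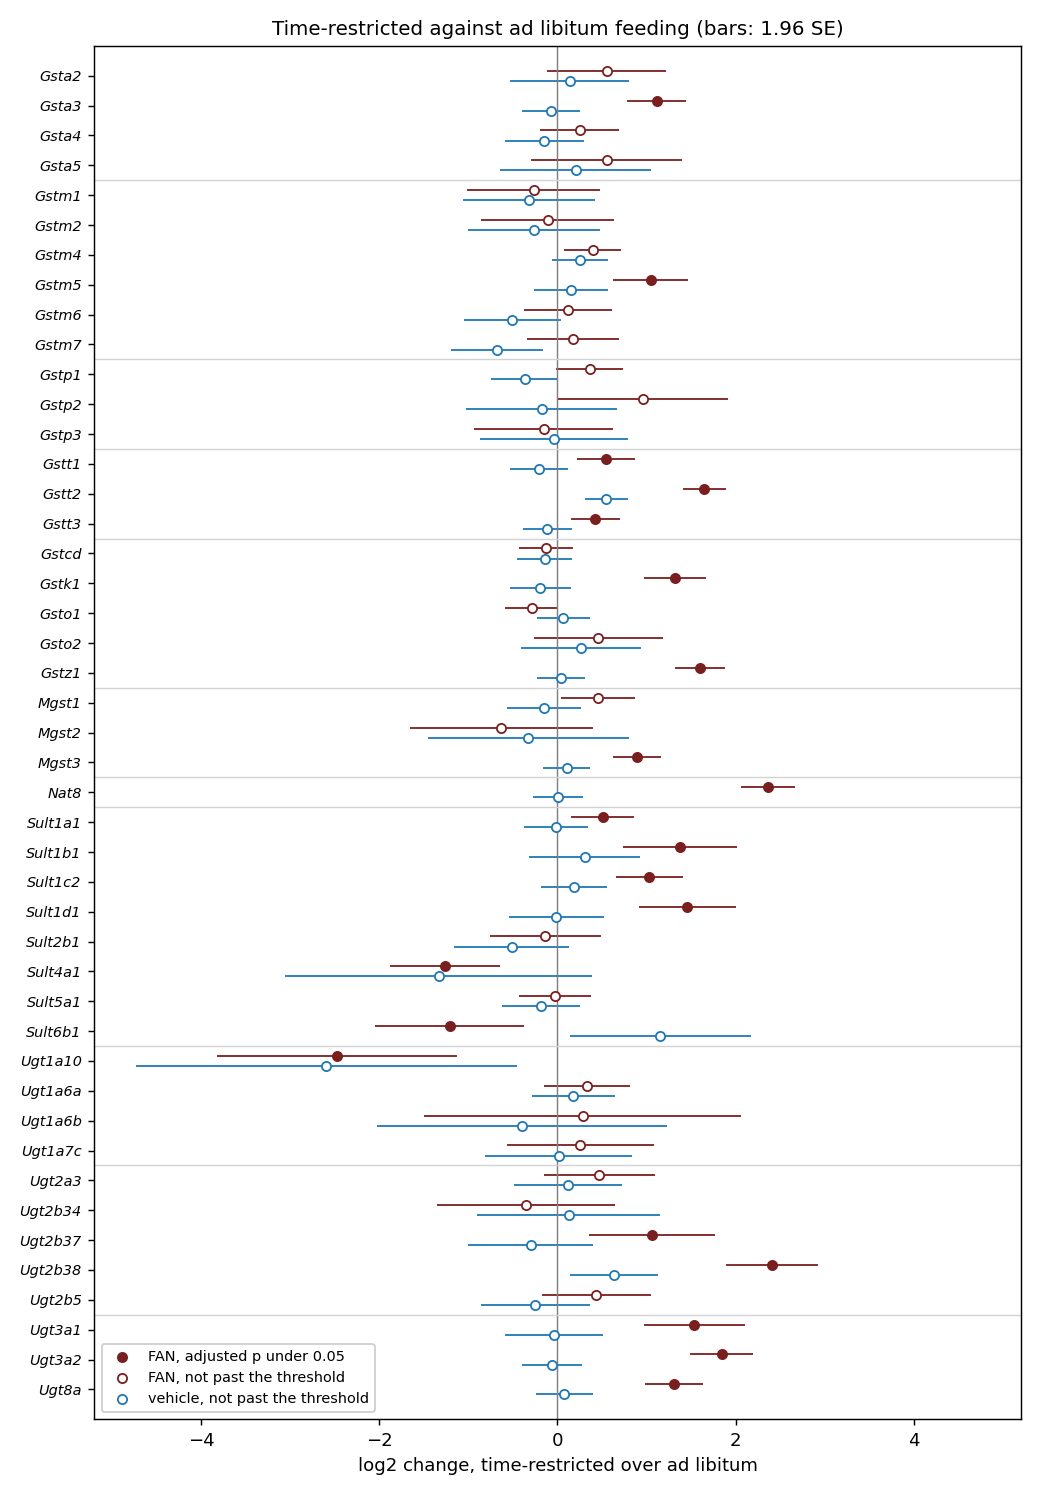
Log2 change of time-restricted over ad libitum feeding for the 45 tested enzymes in FAN (dark red) and vehicle kidneys (blue), with bars for the 95% interval; filled points have an adjusted p under 0.05. Points of FAN kidneys lie right of 0 for most enzymes, with Ugt2b38 and Nat8 farthest, and no vehicle point is filled.

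Among vehicle kidneys 0 enzymes passed, and over all genes the share was 0% (0 genes by edgeR at the threshold, 1143 at an unadjusted p under 0.05, and 58 by DESeq2). The median log2 change of the 45 was -0.04. Time-restricted libraries lay above ad libitum libraries without overlap for 1 enzyme, Gstt2, where 2.85% of all genes did so. The 95% interval of the difference ran from -0.28 to 0.29 for Nat8, from -0.40 to 0.28 for Ugt3a2 and from -1.06 to 0.42 for Gstm1.

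Of the 71 enzymes 26 were not tested. No count was seen in any library for 11 of them, 8 sulfotransferases of the Sult2a and Sult3a groups, Ugt1a8, Ugt2a1 and Ugt2a2. The other 15 had 1 to 68 counts summed over the 16 libraries, with Gstt4 highest. These include Sult1e1, the estrogen sulfotransferase, and Ugt1a1, the bilirubin-conjugating enzyme, at 26 and 27 counts. Among the 45 tested, 10 passed no comparison, and the share of all genes that did so is not given here.

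Most of the listed genes that supply glutathione or process its conjugates fell with FAN ad libitum. The counts of these and the following lists stand beside shares of all tested genes. With FAN 24.5% rose and 19.0% fell under time restriction, and 32.1% and 28.6% ad libitum. With time restriction among FAN kidneys 17.9% were higher and 13.9% lower. Of 10 genes of glutathione synthesis and recycling, 0 rose and 5 fell with FAN under time restriction, 1 rose and 8 fell ad libitum (medians -0.48 and -1.19), and 7 were higher and 1 lower with time restriction among FAN kidneys. Glutathione synthetase (Gss) averaged 229.8, 94.5, 444 and 409 CPM in FAN time-restricted, FAN ad libitum, vehicle time-restricted and vehicle ad libitum kidneys, with log2 changes of -0.95 and -2.11 under the 2 regimens (adjusted p = 4.45e-06 and 2.40e-10). Gclm, the modifier subunit of the rate-limiting ligase, had -0.33 and -1.62 (adjusted p = 0.078 and 4.73e-08). The 1 that rose ad libitum was Slc7a11, the cystine transporter, at means under 2 CPM and named after its values were seen. Of 18 tested genes that turn glutathione conjugates into mercapturates or break them down, 3 rose and 12 fell with FAN under time restriction, 3 rose and 14 fell ad libitum (medians -0.96 and -2.04), and 12 were higher with time restriction among FAN kidneys. Ggt1, the brush-border gamma-glutamyltransferase, averaged 796, 262, 1889 and 1763 CPM in the 4 groups in the same order (-1.25 and -2.75, adjusted p = 4.24e-06 and 2.60e-10). Acy1, which removes acetyl groups from mercapturates, had the smallest p ad libitum (-3.59), and the Nat8 relatives Nat8f1 and Nat8f6 changed by -3.12 and -3.29 ad libitum and by -0.93 and -0.96 under time restriction.

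Of 15 tested genes that supply UDP-glucuronic acid, PAPS and sulfate, 1 rose and 7 fell with FAN under time restriction, 1 rose and 9 fell ad libitum (medians -0.41 and -0.999). Papss2, which makes PAPS, changed by -0.46 and -1.91, and Ugdh, which makes UDP-glucuronic acid, by -0.37 and -1.17. The 1 that rose was the sulfate transporter Slc13a1 (1.08 and 0.89), named after its values were seen. Of 20 tested transferases of other conjugation routes, such as methylation and glycine conjugation, 1 rose and 10 fell with FAN under time restriction, 1 rose and 17 fell ad libitum (medians -0.41 and -1.73), and 17 were higher with time restriction among FAN kidneys. Inmt, an indole methyltransferase, changed by -0.87 and -3.60 and Acsm1, a medium-chain acyl-CoA synthetase, by -1.53 and -3.05. Of 10 efflux transporters, 1 rose and 3 fell with FAN under time restriction, 3 rose and 4 fell ad libitum; Slc47a1 (MATE1) changed by -0.80 and -2.04 and Abcc2 (MRP2) by -0.81 and -1.41. With 10 transporters these counts lie near the shares of all genes, and nothing is read from them about the list. Of 5 tested deconjugating enzymes, 2 rose and 1 fell with FAN under time restriction, 1 rose and 2 fell ad libitum.

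Genes of regulators were mixed. Of 22 tested, 6 rose and 4 fell with FAN under time restriction, 8 rose and 7 fell ad libitum, counts near the shares of all genes, so nothing is read from them about the list. Nfe2l2, which encodes NRF2, rose by 0.56 and 0.51 under the 2 regimens, and Ahr by 0.95 and 1.77. Hnf4a, a nuclear receptor of the proximal tubule, fell by 0.82 and 1.98 and was higher with time restriction among FAN kidneys (1.07). Among 9 other known targets of NRF2 and AHR, 2 rose and 3 fell with FAN under time restriction, 1 rose and 5 fell ad libitum. Nqo1 fell by 0.54 and 1.34, Hmox1, named after its values were seen, had 0.02 and -0.14 and did not pass, and the AHR target Cyp1b1 rose by 2.78 and 2.36. Transcript levels of a regulator do not measure its activity.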

How the data were processed

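Kidney RNA (polyA-selected, stranded libraries, per the labels' protocols) gave 1 table of raw counts per Ensembl gene for 16 libraries, as deposited by the authors. The submitters' processing notes name FastQC 0.11.5, STAR 2.5.3a, edgeR 3.26.7 and build mm10, with no roles; how reads were counted, and with which strand option, is not given in the sources used here. Genes were tested with edgeR 4.0.16 in R 4.3.3 (TMM scaling, filterByExpr with a minimum count of 10, robust quasi-likelihood, 1 model of 4 groups, 17731 genes); DESeq2 1.42.0 was an alternative. The procedure was run on simulated data in which few genes were changed. Such data cannot check the scaling on which the directions depend. Nothing in the labels says that the libraries are separate animals, so p-values measure only the spread between these samples, which may be technical. No file column pairs FAN libraries with individual samples, so these are replicates of their group without a label of their own.

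The enzymes, the gene lists and the tests were chosen with earlier results of these data known. Named by rule were 39 enzymes: in each family the 3 highest in mean CPM and, among called enzymes with a mean of at least 1 CPM, the 3 largest changes each way per FAN comparison and all called for feeding or the interaction. Others are named after their values were seen. From each gene list up to 4 genes with the smallest p for FAN ad libitum were taken. Coordinates are GENCODE M21 on GRCm38, matched by gene ID for all 71 enzymes, since the starts in the count table do not follow that build. Promoter windows are from RefSeq, GRCm38.p6. Alternatives were RLE and library-size scaling, no filter, no mitochondrial transcripts, the 2 groups alone, a replicate block, DESeq2 and leaving out each library. Another took low or high S number as a covariate, which puts the separate higher ranges of vehicle and FAN libraries in 1 class. Chosen after seeing the data were leaving out either of 2 pairs of FAN ad libitum libraries, and a replicate block for the interaction.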

Additional observations from a re-analysis of the deposited data

Results flagged for a closer look

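A library stood apart from the other 3 of its group in 14 of 156 groups of values checked with Dixon's criterion for 4 samples, which chance meets in about 1 of 20 groups. In FAN time-restricted kidneys Gstm2 was 91.3 CPM in library 12, where the other 3 ran from 28.6 to 31.4 CPM. Gstp2 was 0.428 CPM in library 6, where the other 3 ran from 0.707 to 0.744 CPM. Gstt2 was 187 CPM in library 6, where the other 3 ran from 246 to 251 CPM. Sult1b1 was 8.99 CPM in library 6, where the other 3 ran from 4.55 to 4.86 CPM. Sult1d1 was 496 CPM in library 11, where the other 3 ran from 701 to 743 CPM. In FAN ad libitum kidneys Gsto2 was 0.986 CPM in library 10, where the other 3 ran from 0.461 to 0.513 CPM. Nat8 was 46.1 CPM in library 7, where the other 3 ran from 62.9 to 63.5 CPM. Sult1a1 was 53.1 CPM in library 10, where the other 3 ran from 31.4 to 34.2 CPM. Sult1c2 was 53.7 CPM in library 10, where the other 3 ran from 24.2 to 28.9 CPM. In vehicle time-restricted kidneys Gstcd was 6.99 CPM in library 1, where the other 3 ran from 5.58 to 5.81 CPM. In vehicle ad libitum kidneys Sult4a1 was 0 CPM in library 2, where the other 3 ran from 0.126 to 0.144 CPM. The counts of Sult4a1 in these 4 libraries were 4, 0, 3 and 2, near the floor, and nothing is read from that gap. Ugt1a7c was 109 CPM in library 1, where the other 3 ran from 55.2 to 60.8 CPM. Ugt2b37 was 464 CPM in library 1, where the other 3 ran from 203 to 213 CPM. Ugt2b5 was 24.5 CPM in library 1, where the other 3 ran from 11.6 to 12.7 CPM. In vehicle ad libitum kidneys library 1 stood apart for Ugt1a7c, Ugt2b37 and Ugt2b5, and in FAN ad libitum kidneys library 10 did so for Gsto2, Sult1a1 and Sult1c2. Ugt2b37 and Ugt2b5 share transcript sequence, so their values are not wholly separate.

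The FAN change differed between feeding regimens, by edgeR's interaction term, for 12 enzymes. The interaction, on the log2 scale, was 2.36 for Nat8, 1.90 for Ugt3a2, 1.77 for Ugt2b38, 1.58 for Ugt3a1, 1.56 for Gstz1, 1.52 for Gstk1, 1.47 for Sult1d1, 1.23 for Ugt8a, 1.18 for Gsta3, 1.1004 for Gstt2 and 0.79 for Mgst3. For Sult6b1, with means under 1 CPM, it was -2.36.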

How the results depend on the processing

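Nat8, Ugt3a2, Gstz1 and Gstt2 kept their call in both FAN comparisons, in the feeding comparison of FAN kidneys and in the interaction under every alternative run for each. Under library-size scaling 13 enzymes rose with FAN ad libitum, 11502 genes and 9 enzymes (lower) were called for feeding in FAN kidneys, and 6631 genes and 3 enzymes (lower) in the interaction. There Gstm5 turned to 0.044 (FAN, ad libitum), Gstt1 to -0.079, Gstt3 to -0.22 and Sult1a1 to -0.12 (feeding in FAN), and Gstcd to -0.57 (interaction). Leaving out FAN ad libitum 6 and 7 gave 3127 genes for feeding in FAN, 7 for feeding in vehicle and 0 enzymes lower in the interaction. Leaving out 10 and 12 gave 4282 genes and 17 enzymes (higher) in the interaction, and 5 genes for feeding in vehicle. With no filter 6 genes were called for feeding in vehicle and 0 enzymes lower in the interaction; with the 2 groups alone 1 gene and with DESeq2 58 genes and 1 enzyme were called for feeding in vehicle.

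Leaving out 1 library at a time, the genes called were 6693 to 7989 (FAN, time-restricted), 10176 to 10979 (FAN, ad libitum), 4196 to 6314 (feeding in FAN), 0 to 4 (feeding in vehicle) and 1160 to 2371 (interaction). In the interaction 10 to 17 enzymes were higher and 0 to 1 lower. The cause of these shifts was not tested.

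With the replicate number as a block, feeding in FAN gave 2325 genes and feeding in vehicle 0. The interaction with such a block, over the numbers shared by both feeding groups of a treatment, was added after seeing the data and gave 861 genes, 9 enzymes higher and 0 lower. Same-numbered libraries deviated together with r of -0.13, -0.05 and -0.25 in FAN and 0.18, 0.12, -0.15 and -0.01 in vehicle kidneys, so the numbers were not taken to pair the samples. No paired analysis was possible for FAN against vehicle because these groups share no numbers. Low S numbers alone could not be fitted under time restriction, where FAN has 1 such library. At this depth, enzymes under about 1 CPM rest on few counts.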
